A study of Homo sapiens with 9 samples.

Results

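Interferon-stimulated genes were examined in OVCA433, an established human ovarian serous adenocarcinoma cell line, after lentiviral knockdown of MPZL3, a predicted cell adhesion molecule. The 44 genes were those whose name in the count table stood on a list of genes known for induction by interferon, out of 58676 genes in the table. Cells had been transduced with a vector expressing shRNA hairpin #1, with a vector expressing hairpin #3, or with a control vector, and each group had 3 RNA libraries, which the labels letter A, B and C. Control libraries carry the genotype WT and the others the genotype MPZL3 knock-down in the labels, which name no interferon treatment, and all cells had been selected with puromycin after transduction. The methods describe the OVCA433 control as an empty vector while another passage of the study speaks of a scramble control for this line, so whether the control cells made a hairpin is uncertain.

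Cells that sense viral nucleic acid secrete type I and type III interferons, which bind receptors on the same or neighbouring cells and act through the kinases JAK1 and TYK2. A transcription factor complex that holds STAT2 and IRF9 then binds the interferon-stimulated response element (ISRE), a DNA motif in the promoters of many interferon-stimulated genes. Their products sense RNA, block virus entry, degrade RNA, stop translation or attach the ubiquitin-like protein ISG15 to other proteins, and many tumour lines hold part of this program at a steady level without added interferon.

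Library totals ranged from 16850854 to 23890191 counts. MPZL3, the targeted gene, stood at 15.6 to 21.9 CPM (counts scaled to a library total of 1000000) in the control libraries, at 1.80 to 1.98 CPM with hairpin #1 and at 0.986 to 1.94 CPM with hairpin #3. The 10 markers of serous carcinoma and epithelium summed to 10860 to 12900 CPM in control and to 5203 to 6709 CPM in the knockdown libraries. Of these, PAX8 was present in every library and WT1 was at 0 in every library. CDH1, the epithelial cadherin, lay at 269.7 to 280.6 CPM in control and at 0 to 0.353 CPM in the knockdown libraries. EPCAM, an epithelial adhesion molecule, lay at 375.3 to 419.6 CPM in control and 4.68 to 9.93 CPM in the knockdown libraries, and MUC16 had no count in any knockdown library. CDH1, EPCAM and MUC16 do not stand for the whole list. Nearly all of the 5203 to 6709 CPM left in the knockdown libraries came from its other members, which are not given one by one. Of 8 leukocyte markers, AIF1 and TYROBP were among those with no count in any library, and the 8 summed to 0.184 to 1.31 CPM per library. The plasmacytoid dendritic cell markers CLEC4C and LILRA4 were also at 0, and their list of 3 summed to 0.552 to 1.32 CPM. Of 6 fibroblast genes, DCN was at 0 in every library, and the 6 summed to 18.1 to 22.4 CPM in control, 100.1 to 428.9 CPM with hairpin #1 and 488.1 to 849.1 CPM with hairpin #3, nearly all from the collagen gene COL1A1. The 3 endothelial markers summed to 0.398 to 0.62, 1.49 to 4.07 and 3.29 to 5.84 CPM in the same order. The sums of the epithelial, fibroblast and endothelial lists separated control from knockdown libraries. Those of the leukocyte and plasmacytoid dendritic cell lists overlapped between all groups. The part of these lists in the results below was not tested. CDH1, EPCAM and MUC16 were lower in every knockdown library than in every control library, so an effect of the hairpins and a difference in the starting cells of the groups cannot be told apart in any comparison with control.

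Of the 44 genes, 42 had enough counts to be tested. A gene is said to have risen or fallen where its adjusted p was under 0.05 in a quasi-likelihood F test (edgeR), with Benjamini-Hochberg correction over all 15975 tested genes. The family split into members that rose, members that fell and a larger number that passed in neither direction. With hairpin #1, 10 of the 42 rose (23.8%) and 9 fell (21.4%), against 18% of all tested genes that rose and 19.7% that fell. With hairpin #3, 10 rose (23.8%) and 10 fell (23.8%), against 16.6% and 18.1% of all tested genes. The shares of members called were thus near or slightly above the background in both directions. The median log2 fold change over the 42 members was -0.01 with hairpin #1 and -0.15 with hairpin #3, against 0.00 for all tested genes in both comparisons. In these bulk samples, a change in the share of cells that express a gene and a change in RNA per cell cannot be told apart.

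A change of at least 2-fold at the same threshold was found for 6 members with hairpin #1 (14.3%, background 16.3%), of which IFITM1, IFITM2, IFI44L, OAS2 and OASL were higher and IFIT2 was lower. With hairpin #3 it was found for 10 members (23.8%, background 15.3%). Of these, IFITM1, IFITM2, IFI27, IFI44, IFI44L, OAS2 and OASL were higher, and IFIT2, IRF1 and SAMD9L were lower. Both comparisons used the same 3 control libraries, so they are not independent of each other. By subgroup, IFITM1, IFITM2, IFI44, IFI44L, OAS2, OASL and USP18 rose with both hairpins, and IFIT2, IFIT5, IRF1, SAMD9, SAMD9L and PARP9 fell with both. The MX genes and the double-stranded RNA effectors EIF2AK2 and ADAR passed in neither direction with either hairpin.

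**Figure D1:**
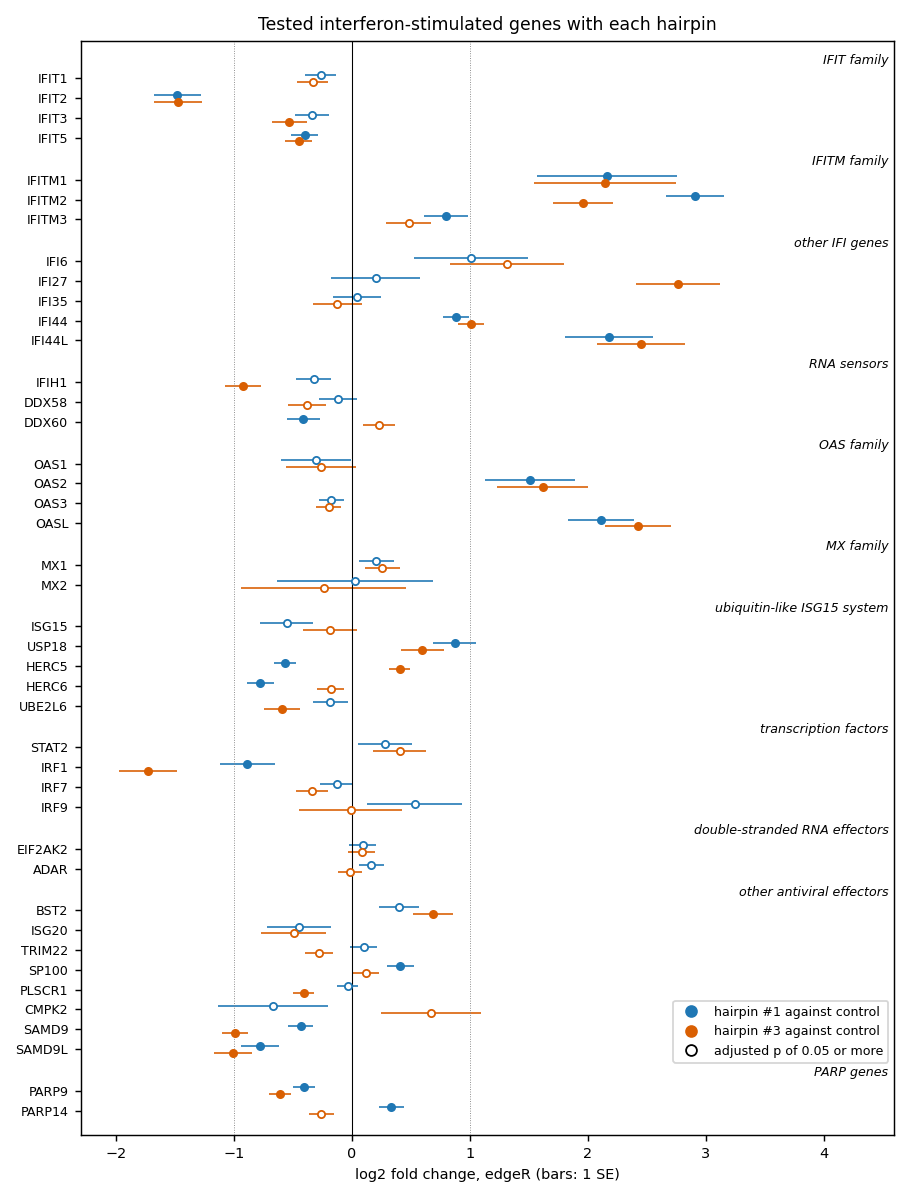
Log2 fold change of each of the 42 tested interferon-stimulated genes with hairpin #1 (blue) and hairpin #3 (orange) against the control vector, with bars of 1 SE, by subgroup. Filled points passed an adjusted p of 0.05 and dotted lines mark a 2-fold change. IFITM1, IFITM2, IFI44L, OAS2 and OASL lie to the right with both hairpins, and IFIT2, IRF1 and SAMD9L to the left.

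Promoter sequences of 250 bases before to 50 bases after the RefSeq start (GRCh38.p14) were available for 35 of the 44 genes. An ISRE was searched on both strands as GAAA, any 2 bases, then GAAA, and a gamma-activated site (GAS, a motif of interferon gamma targets) as TTC, any 3 bases, then GAA. The ISRE letters were in 23 of the 35 promoters (65.7%), against 3.57% of all 35116 promoters of the same length, and the GAS letters were in 11 (31.4%), against 7.66%. Stretches are shown for members that rose, members that fell and HERC5, which went opposite ways with the hairpins, so that their sites can be compared. Capitals mark ISRE matches, or the GAS match in IRF1, and each stretch reads 5′ to 3′ on the strand of the gene.
IFITM1 (rose with both, chr11:313980-314063, plus strand): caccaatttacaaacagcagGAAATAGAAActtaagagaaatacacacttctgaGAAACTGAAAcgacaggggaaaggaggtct
IFI44 (rose with both, chr1:78649751-78649800, plus strand): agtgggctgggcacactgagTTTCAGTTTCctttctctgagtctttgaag
IFI44L (rose with both, chr1:78620264-78620404, plus strand): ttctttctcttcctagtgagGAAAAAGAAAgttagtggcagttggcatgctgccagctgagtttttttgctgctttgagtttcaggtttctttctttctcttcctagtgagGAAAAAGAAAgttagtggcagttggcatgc
IFI27 (rose with hairpin #3, chr14:94110608-94110670, plus strand): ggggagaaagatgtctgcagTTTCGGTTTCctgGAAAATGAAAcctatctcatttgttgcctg
IFIT5 (fell with both, chr10:89414503-89414593, plus strand): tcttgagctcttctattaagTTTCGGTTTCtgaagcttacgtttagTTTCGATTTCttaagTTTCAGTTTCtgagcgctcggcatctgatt
SAMD9 (fell with both, chr7:93118086-93118135, minus strand): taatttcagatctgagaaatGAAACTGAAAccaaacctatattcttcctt
PARP9 (fell with both, chr3:122564312-122564361, minus strand): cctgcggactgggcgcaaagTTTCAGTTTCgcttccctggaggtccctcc
HERC5 (fell with hairpin #1 and rose with hairpin #3, chr4:88456974-88457074, plus strand): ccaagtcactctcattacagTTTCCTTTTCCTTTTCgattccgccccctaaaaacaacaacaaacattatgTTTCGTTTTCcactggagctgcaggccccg
IRF1 (fell with both, chr5:132490869-132490917, minus strand): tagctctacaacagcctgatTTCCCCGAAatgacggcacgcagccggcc

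ISRE letters thus stood in members that moved in either direction. Of the 22 tested members with a match, 5 rose and 5 fell with hairpin #1, and 6 rose and 6 fell with hairpin #3. Of the 11 tested members whose matched promoter held none, 1 rose and 3 fell with hairpin #1, and 0 rose and 3 fell with hairpin #3. Over all tested genes, 18% rose and 19.7% fell with hairpin #1, and 16.6% and 18.1% with hairpin #3. Movement in both directions was thus not particular to members with these letters. In IFI44L the same 10 letters occurred at both sites, and in HERC5 the first pair of matches overlapped each other. A match describes the letters in this window and is not a measured binding site.

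The IFIT genes lie side by side on chromosome 10 (hg38) and encode RNA-binding proteins that hold back translation of foreign RNA. No member of the subgroup rose, 2 of 4 fell with hairpin #1 and 3 of 4 fell with hairpin #3. IFIT2 stood at 19.6, 27.2 and 34.5 CPM in control libraries A, B and C, at 7.75, 10.6 and 10.8 CPM with hairpin #1 and at 8.70, 11.5 and 9.01 CPM with hairpin #3. Every knockdown library lay below every control library, although the control libraries themselves spread widely. Its log2 fold change was -1.48 ± 0.20 (SE, adjusted p = 6.35e-05) with hairpin #1 and -1.48 ± 0.20 (adjusted p = 7.59e-05) with hairpin #3, and the hairpins did not differ detectably (difference 0.00 ± 0.21, adjusted p = 1.0). IFIT5, which binds RNA with a free triphosphate end, fell less, with log2 fold changes of -0.40 with hairpin #1 (adjusted p = 0.0134) and -0.45 with hairpin #3 (adjusted p = 0.00747). The call for IFIT5 with hairpin #1 was lost without control replicate A (-0.32, adjusted p = 0.0581), hairpin #1 replicate B (-0.35, adjusted p = 0.0528) or hairpin #1 replicate C (-0.36, adjusted p = 0.0536). IFIT3 had log2 fold changes of -0.34 (adjusted p = 0.0803) and -0.53 (adjusted p = 0.0124), and IFIT1 of -0.27 and -0.34, neither of which passed. IFIT1, IFIT2 and IFIT3 overlap LIPA on the opposite strand and the libraries carried no strand, so reads of the overlap cannot be assigned by direction.

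The IFITM genes form a cluster on chromosome 11 and encode small membrane proteins that block fusion of viruses with cell membranes. They were the only subgroup in which all members had fitted values above control with both hairpins, with 3 of 3 passing for hairpin #1 and 2 of 3 for hairpin #3. IFITM2, found mainly in endosomes, stood at 0.774, 1.29 and 1.72 CPM in control, at 8.08, 9.55 and 10.9 CPM with hairpin #1 and at 4.59, 4.66 and 5.52 CPM with hairpin #3. The 3 groups did not overlap, and the hairpin #3 libraries lay between the other two groups. The log2 fold change was 2.91 ± 0.25 (adjusted p = 8.11e-07) with hairpin #1 and 1.96 ± 0.25 (adjusted p = 4.59e-05) with hairpin #3. The difference between the hairpins was -0.95 ± 0.21 (adjusted p = 0.0114), and this call was lost without hairpin #1 replicate C (-0.83, adjusted p = 0.0524) or hairpin #3 replicate B (-0.91, adjusted p = 0.0594).

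IFITM1, found mainly at the cell surface, was scarce in every library, at 0.0967, 0.497 and 0.525 CPM in control, at 0.887, 2.49 and 1.71 CPM with hairpin #1 and at 0.823, 2.85 and 1.33 CPM with hairpin #3. Replicate A was the lowest of each group, and the control libraries did not overlap either knockdown group. It rose by 2.16 ± 0.60 on the log2 scale with hairpin #1 (adjusted p = 0.0113) and by 2.14 ± 0.60 with hairpin #3 (adjusted p = 0.0135). The first call was lost without hairpin #1 replicate B (1.79, adjusted p = 0.0565) and the second without hairpin #3 replicate B (1.53, adjusted p = 0.0867). IFITM3, the most abundant of the family, stood at 53.1, 77.5 and 73.8 CPM in control, at 86.0, 123.1 and 145.5 CPM with hairpin #1 and at 78.9, 98.6 and 107.4 CPM with hairpin #3, with log2 fold changes of 0.80 ± 0.19 (adjusted p = 0.00455) and 0.48 ± 0.19 (adjusted p = 0.0657). The values of the family are uncertain in part. In the deposited gene models IFITM2 encloses IFITM1 on the same strand. Windows of 100 bases were taken from the longest coding transcript of each gene and sought in all transcripts of other genes. For IFITM1, 37.7% also occur in IFITM2 or IFITM3, against 5.92% for IFITM3 and 0% for IFITM2. Other transcripts of IFITM2 do hold windows of IFITM1 and IFITM3. The 0% therefore does not show that IFITM2 reads are free of ambiguity.

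**Figure D2:**
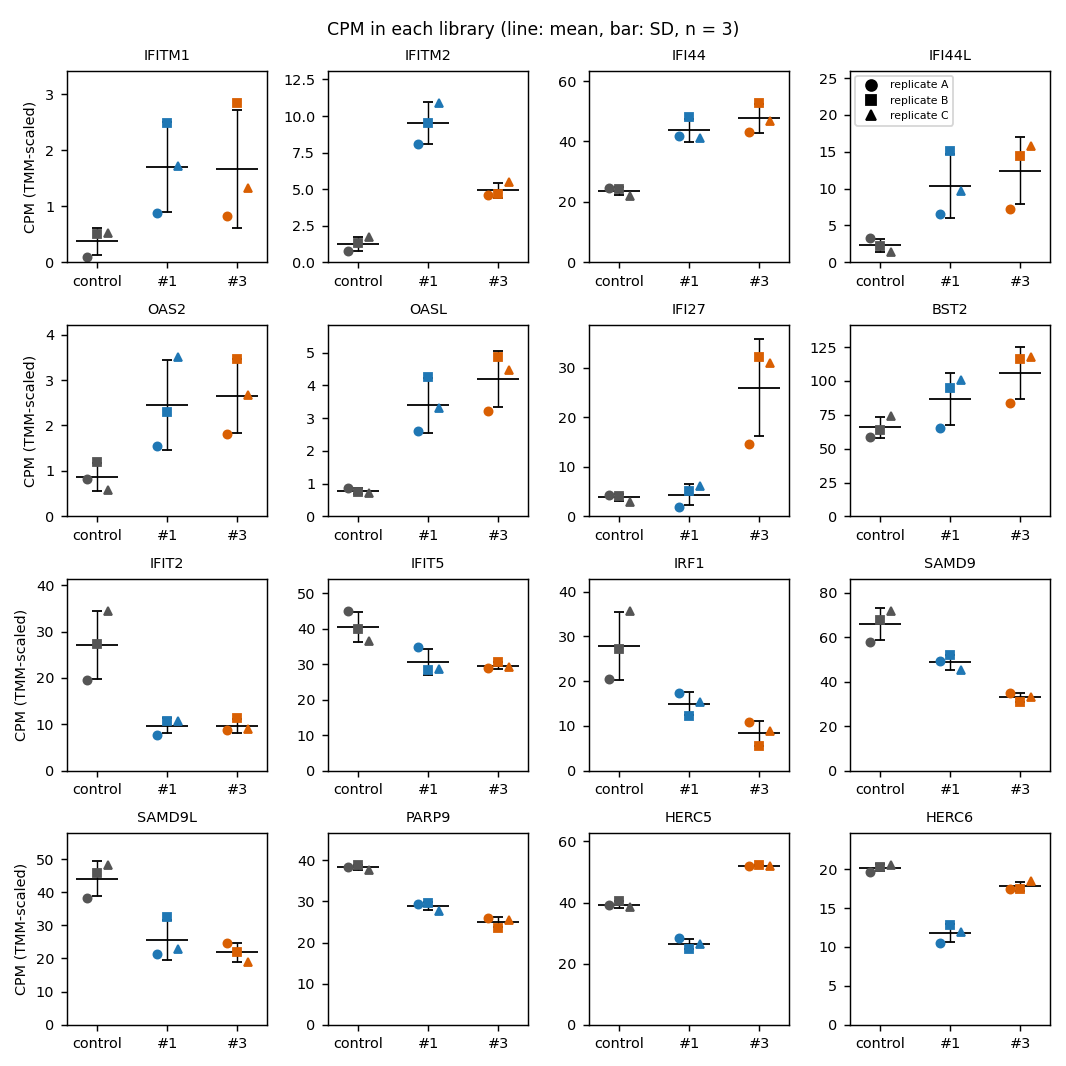
TMM-scaled CPM of 16 interferon-stimulated genes in each library, by group (x axis), with the mean (line) and SD (bar) of 3 libraries. Circles, squares and triangles are replicates A, B and C. The knockdown libraries of IFI44, IFI44L, OAS2 and OASL all lie above the control libraries, those of IFIT2, IRF1, SAMD9 and PARP9 all lie below, and HERC5 lies below control with hairpin #1 and above it with hairpin #3.

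Of the other IFI genes, 2 of 5 rose with hairpin #1 and 3 of 5 with hairpin #3, and none fell. IFI44 and IFI44L are neighbours on chromosome 1 that encode related cytoplasmic proteins. IFI44 stood at 24.6, 24.4 and 22.1 CPM in control, at 41.9, 48.1 and 41.2 CPM with hairpin #1 and at 43.3, 52.9 and 46.8 CPM with hairpin #3. Spread within groups was small and all 6 knockdown libraries lay above control. It rose by 0.89 ± 0.11 (adjusted p = 2.77e-05) and 1.01 ± 0.11 (adjusted p = 9.61e-06) on the log2 scale. IFI44L stood at 3.24, 2.19 and 1.43 CPM in control, at 6.49, 15.04 and 9.64 CPM with hairpin #1 and at 7.23, 14.4 and 15.7 CPM with hairpin #3. Its rise was larger and its libraries more scattered than those of IFI44, with log2 fold changes of 2.18 ± 0.37 (adjusted p = 0.000444) and 2.45 ± 0.37 (adjusted p = 0.000186).

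IFI27, a small protein of mitochondrial and nuclear membranes, was the member in which the hairpins differed most. It stood at 4.26, 4.23 and 3.01 CPM in control, at 2.01, 5.08 and 6.08 CPM with hairpin #1 and at 14.7, 32.2 and 31.0 CPM with hairpin #3. Hairpin #1 libraries overlapped control, whereas all hairpin #3 libraries lay above both other groups. The log2 fold change was 0.20 ± 0.38 (adjusted p = 0.717) with hairpin #1 and 2.76 ± 0.36 (adjusted p = 4.41e-05) with hairpin #3, and the difference of 2.56 ± 0.35 had an adjusted p of 0.000389. IFI6, a membrane protein that restrains flaviviruses, had log2 fold changes of 1.01 ± 0.48 (adjusted p = 0.12) and 1.32 ± 0.48 (adjusted p = 0.0505). Its replicate A was at 3.92, 7.33 and 8.70 CPM in the control, hairpin #1 and hairpin #3 groups, below both other libraries of each group, which ranged from 8.07 to 30.4 CPM. IFI35 had values of 0.04 and -0.13, and did not pass.

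The RNA sensors are cytoplasmic helicases, with DDX58 encoding RIG-I and IFIH1 encoding MDA5, and DDX60 acting beside them. None rose, and 1 of 3 fell with each hairpin, but not the same one. IFIH1 stood at 12.4, 14.3 and 14.9 CPM in control, at 10.1, 12.7 and 10.5 CPM with hairpin #1 and at 8.05, 7.73 and 6.21 CPM with hairpin #3. Hairpin #3 libraries lay below all others, and hairpin #1 libraries overlapped control. The log2 fold change was -0.33 ± 0.15 (adjusted p = 0.103) with hairpin #1 and -0.93 ± 0.15 (adjusted p = 0.000371) with hairpin #3. Their difference of -0.60 ± 0.15 (adjusted p = 0.0234) did not pass without hairpin #1 replicate B (-0.49, adjusted p = 0.0917), hairpin #3 replicate B (-0.64, adjusted p = 0.0614) or hairpin #3 replicate C (-0.48, adjusted p = 0.108). DDX58 had log2 fold changes of -0.12 and -0.38, neither passing.

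DDX60 stood at 15.6, 15.9 and 14.0 CPM in control, at 9.38, 12.9 and 12.0 CPM with hairpin #1 and at 16.5, 19.2 and 17.7 CPM with hairpin #3. Its 3 groups did not overlap, with hairpin #1 lowest and hairpin #3 highest. The log2 fold change of -0.41 ± 0.14 with hairpin #1 (adjusted p = 0.0311) lost its call without control replicate A (-0.39, adjusted p = 0.0718), control replicate B (-0.38, adjusted p = 0.1) or hairpin #1 replicate A (-0.29, adjusted p = 0.116), in replicates B and C alone (-0.26, adjusted p = 0.172) and where only these groups were fitted (-0.41, adjusted p = 0.0541). With hairpin #3 the value was 0.23 ± 0.14 (adjusted p = 0.223). The 50 expressed genes nearest to DDX60 had a median of -0.46 with hairpin #1 and -0.04 with hairpin #3. The hairpins differed by 0.64 ± 0.14 (adjusted p = 0.00865), a call lost without hairpin #3 replicate B (0.58, adjusted p = 0.0538).

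The OAS genes on chromosome 12 encode enzymes that respond to double-stranded RNA by making oligoadenylates, which activate the ribonuclease RNase L, and OASL is a relative without that activity. The family split in the same way with both hairpins, with OAS2 and OASL rising and OAS1 and OAS3 passing with neither. OAS2 stood at 0.822, 1.19 and 0.573 CPM in control, at 1.54, 2.29 and 3.51 CPM with hairpin #1 and at 1.82, 3.45 and 2.67 CPM with hairpin #3. OASL stood at 0.871, 0.746 and 0.716 CPM in control, at 2.61, 4.27 and 3.30 CPM with hairpin #1 and at 3.23, 4.88 and 4.46 CPM with hairpin #3. For both genes all 6 knockdown libraries lay above control, at low levels throughout. OAS2 rose by 1.51 ± 0.38 (adjusted p = 0.00706) and 1.62 ± 0.38 (adjusted p = 0.005) on the log2 scale, and OASL by 2.11 ± 0.28 (adjusted p = 4.92e-05) and 2.42 ± 0.28 (adjusted p = 1.54e-05). OAS1 had log2 fold changes of -0.31 and -0.26, and OAS3, by far the most abundant of the 4 per kilobase of gene length, of -0.17 and -0.20. An antisense gene overlaps OAS1, OAS2 and OAS3, and its reads cannot be told from theirs without strand.

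The MX genes encode dynamin-like GTPases that trap viral nucleocapsids. MX1 stood at 16.5 to 24.8 CPM in control, 20.3 to 27.0 CPM with hairpin #1 and 24.1 to 24.8 CPM with hairpin #3, with log2 fold changes of 0.21 (adjusted p = 0.308) and 0.26 (adjusted p = 0.21). MX2 stayed under 0.73 CPM in every library. The groups overlapped for both genes.

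The ubiquitin-like system consists of ISG15 itself, the conjugating enzyme UBE2L6, the ligase HERC5 and its relative HERC6, and USP18, a protease that removes ISG15 and also restrains the type I receptor. Its members did not move together: 1 rose and 2 fell of 5 with hairpin #1, and 2 rose and 1 fell with hairpin #3. USP18 was the only one of the 5 that rose with both, from 2.63 to 3.33 CPM in control to 5.13 to 6.25 CPM with hairpin #1 and 4.41 to 5.10 CPM with hairpin #3. Its log2 fold changes were 0.87 ± 0.18 (adjusted p = 0.00185) and 0.60 ± 0.18 (adjusted p = 0.0222). The hairpin #3 call was lost without control replicate C (0.49, adjusted p = 0.0892) or hairpin #3 replicate B (0.52, adjusted p = 0.0977), and 15.37% of the 100-base windows of the USP18 transcript also occur in USP41. ISG15 had values of -0.56 (adjusted p = 0.0719) and -0.19 (adjusted p = 0.571), with replicate A lowest in each group at 31.7, 17.9 and 23.4 CPM in the control, hairpin #1 and hairpin #3 groups, against 26.9 to 42.6 CPM in the other libraries. UBE2L6 fell by 0.59 with hairpin #3 (adjusted p = 0.00725) and had a value of -0.18 with hairpin #1 (adjusted p = 0.362).

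HERC5 went opposite ways with the hairpins. It stood at 39.1, 40.5 and 38.4 CPM in control, at 28.2, 24.8 and 26.4 CPM with hairpin #1 and at 52.0, 52.3 and 52.0 CPM with hairpin #3. The groups were tight and did not overlap. It fell by 0.57 ± 0.09 on the log2 scale with hairpin #1 (adjusted p = 0.000253) and rose by 0.40 ± 0.09 with hairpin #3 (adjusted p = 0.00326), a difference of 0.98 ± 0.09 (adjusted p = 2.6e-05). HERC6, beside it on chromosome 4, stood at 19.7, 20.3 and 20.5 CPM in control, at 10.6, 12.9 and 11.9 CPM with hairpin #1 and at 17.5, 17.4 and 18.4 CPM with hairpin #3. Its hairpin #1 libraries lay lowest, and its hairpin #3 libraries lay between them and control. It fell by 0.78 ± 0.11 with hairpin #1 (adjusted p = 0.000117), had a value of -0.18 ± 0.11 with hairpin #3 (adjusted p = 0.238) and differed between the hairpins by 0.60 ± 0.11 (adjusted p = 0.00433).

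Of the transcription factors, IRF1 fell with both hairpins and STAT2, IRF7 and IRF9 passed with neither. IRF1, which is induced mainly by interferon gamma and itself activates many members, stood at 20.5, 27.1 and 35.7 CPM in control, at 17.4, 12.2 and 15.4 CPM with hairpin #1 and at 10.9, 5.43 and 8.78 CPM with hairpin #3. The 3 groups did not overlap, with hairpin #3 lowest. Its log2 fold changes were -0.89 ± 0.23 (adjusted p = 0.00882) and -1.73 ± 0.25 (adjusted p = 0.000101). The hairpin #1 call was lost without control replicate C (-0.67, adjusted p = 0.0514). The difference between the hairpins of -0.84 ± 0.25 (adjusted p = 0.043) lay close to the threshold and was lost in 6 of the 9 fits that left out 1 library, namely those without control replicate B (-0.84, adjusted p = 0.0616), hairpin #1 replicate A (-0.73, adjusted p = 0.0905), B (-0.96, adjusted p = 0.0526) or C (-0.82, adjusted p = 0.104), and hairpin #3 replicate B (-0.61, adjusted p = 0.163) or C (-0.87, adjusted p = 0.09). STAT2 had log2 fold changes of 0.28 and 0.40, IRF7 of -0.13 and -0.34, and IRF9 of 0.53 and -0.01. Every 100-base window of the IRF9 transcript also occurs in a transcript of another gene, and a protein-coding gene overlaps IRF9 on the same strand, so its low count may not measure its level. Another protein-coding gene overlaps IRF1 on the opposite strand, and its reads cannot be told from those of IRF1 without strand.

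The double-stranded RNA effectors are the kinase EIF2AK2, known as PKR, and the RNA-editing enzyme ADAR. EIF2AK2 lay at 137.1 to 173.9 CPM and ADAR at 419.8 to 545.2 CPM over all 9 libraries. The groups overlapped, except that all hairpin #1 libraries of ADAR lay above its control libraries. Their log2 fold changes lay between -0.02 and 0.16 over both hairpins and passed with neither.

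The remaining antiviral effectors held 8 tested genes, of which 1 rose and 2 fell with hairpin #1, and 1 rose and 3 fell with hairpin #3. SAMD9 and SAMD9L are neighbouring paralogs on chromosome 7 whose products restrict poxviruses and slow translation and cell growth. SAMD9 stood at 58.0, 67.8 and 71.9 CPM in control, at 49.2, 51.9 and 45.3 CPM with hairpin #1 and at 35.0, 31.0 and 33.2 CPM with hairpin #3. Its 3 groups were stepped without overlap. Its log2 fold changes were -0.43 ± 0.11 (adjusted p = 0.00538) and -0.99 ± 0.11 (adjusted p = 8.69e-06), and the difference of -0.56 ± 0.11 passed (adjusted p = 0.00422). SAMD9L stood at 38.3, 45.8 and 48.2 CPM in control, at 21.4, 32.6 and 23.0 CPM with hairpin #1 and at 24.8, 21.9 and 19.0 CPM with hairpin #3. All knockdown libraries lay below control, and the knockdown groups overlapped each other. The log2 fold changes were -0.78 ± 0.16 (adjusted p = 0.00163) and -1.01 ± 0.16 (adjusted p = 0.000263).

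PLSCR1, a phospholipid scramblase, stood at 45.2, 48.3 and 46.8 CPM in control, at 45.8, 46.1 and 44.7 CPM with hairpin #1 and at 33.8, 36.9 and 34.9 CPM with hairpin #3. Hairpin #1 libraries overlapped control and hairpin #3 libraries lay below both. The values were -0.04 ± 0.09 (adjusted p = 0.768) and -0.41 ± 0.09 (adjusted p = 0.00266), and the difference of -0.37 ± 0.09 (adjusted p = 0.0154) was lost without hairpin #3 replicate C (-0.36, adjusted p = 0.0629) and with no filter on low counts (-0.37, adjusted p = 0.0529). BST2, the tetherin that holds budding virus at the cell surface, stood at 59.0, 64.1 and 74.5 CPM in control, 65.1, 94.9 and 100.9 CPM with hairpin #1 and 84.1, 116.1 and 117.9 CPM with hairpin #3. Hairpin #3 libraries all lay above control, and hairpin #1 libraries overlapped it. It rose with hairpin #3 by 0.69 ± 0.17 (adjusted p = 0.00625) and had a value of 0.40 ± 0.17 with hairpin #1 (adjusted p = 0.0792), and the hairpins did not differ past the threshold (0.29, adjusted p = 0.329). SP100, a nuclear body protein, rose with hairpin #1 by 0.41 (adjusted p = 0.014), a call lost without control replicate A (0.36, adjusted p = 0.0504) or hairpin #1 replicate B (0.33, adjusted p = 0.0578), and 11.76% of its transcript windows also occur in a pseudogene. ISG20, TRIM22 and CMPK2 did not pass, with values between -0.67 and 0.67.

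Among the untested members, RSAD2, which encodes viperin, had 3 to 10 counts in each library with no separation of the groups. XAF1, a proapoptotic factor, had 0, 0 and 2 counts in control, 0 in each hairpin #1 library, and 4, 8 and 9 counts with hairpin #3. A count of 0 allows up to 3 counts in a library, for counting error only, and no fold change is given.

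The PARP genes encode ADP-ribosyltransferases, of which PARP9 acts with the ubiquitin ligase DTX3L, a gene that overlaps it on the opposite strand. PARP9 stood at 38.4, 38.9 and 37.7 CPM in control, at 29.4, 29.5 and 27.7 CPM with hairpin #1 and at 25.9, 23.6 and 25.6 CPM with hairpin #3. Libraries of each group agreed closely and the groups did not overlap. The log2 fold changes were -0.41 ± 0.09 (adjusted p = 0.0032) and -0.61 ± 0.09 (adjusted p = 0.000168). PARP14 stood at 84.2, 75.7 and 89.1 CPM in control, at 99.99, 116.2 and 97.8 CPM with hairpin #1 and at 75.0, 63.9 and 69.1 CPM with hairpin #3. Its hairpin #1 libraries lay above control and its hairpin #3 libraries below. The value of 0.33 ± 0.10 with hairpin #1 (adjusted p = 0.0226) lost its call without control replicate B (0.27, adjusted p = 0.114) or hairpin #1 replicate B (0.25, adjusted p = 0.0974). With hairpin #3 it was -0.26 ± 0.11 (adjusted p = 0.0739), which passed without hairpin #3 replicate A (-0.32, adjusted p = 0.0493), while the difference between the hairpins was -0.59 ± 0.11 (adjusted p = 0.00253).

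Levels can be compared between genes only per kilobase of gene length. On that scale the highest mean levels in control were those of BST2 (58.9 CPM per kb), ADAR (54.6), IFITM3 (50.5), ISG15 (41.0) and UBE2L6 (31.5). The deposited gene length can exceed that of the longest coding transcript, at 1348 against 808 bases for IFITM3 and 1119 against 1019 for BST2. The order of these genes therefore depends on the length used. Members that rose by at least 2-fold with both hairpins were low in control: IFITM2 stood at 0.818 CPM per kb, IFITM1 at 0.345, IFI44L at 0.223, OASL at 0.221 and OAS2 at 0.138. They were chosen by their change over these same control libraries. A low control level was not particular to them: among members that passed with neither hairpin, ISG20 stood at 0.337, CMPK2 at 0.223 and MX2 at 0.033. The 2-fold risers stayed below the 5 leading genes in the knockdown groups too, IFITM2 with hairpin #1 being the highest of them at 6.17 CPM per kb.

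**Figure D3:**
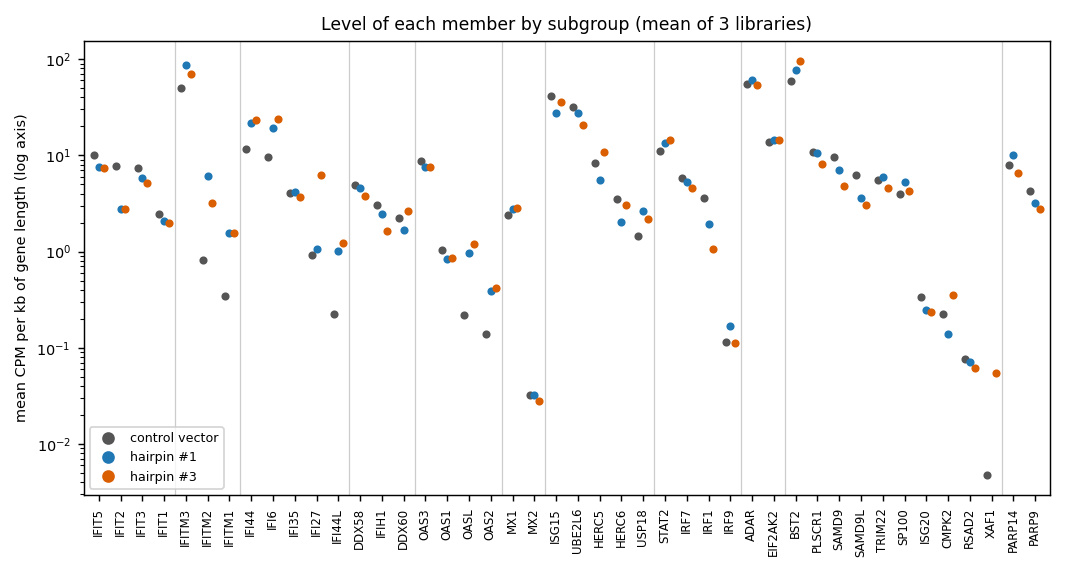
Mean level of each of the 44 interferon-stimulated genes over 3 libraries, in CPM per kilobase of gene length on a log axis, by group and subgroup. A mean of 0 (XAF1 with hairpin #1) cannot be drawn. BST2, ADAR, IFITM3 and ISG15 lie at the top, and IFITM1, IFITM2, IFI44L, OAS2 and OASL start near or below 1 CPM per kb in control and are higher in both knockdown groups.

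The direct comparison of the hairpins asks which members differed between the 2 knockdown groups. An effect of the hairpin sequence and another difference between the cells of these groups cannot be told apart in it. The comparison called 4 members higher with hairpin #3 than with hairpin #1 (9.52%, background 6.33%) and 6 lower (14.3%, background 5.3%). The higher ones were IFI27, HERC5, DDX60 and HERC6, and the lower ones IFITM2, IRF1, IFIH1, PARP14, SAMD9 and PLSCR1, with the values given above. The median difference over the 42 members was -0.06, against -0.01 for all tested genes. The count of members lower with hairpin #3 fell to 3 without hairpin #3 replicate B or without hairpin #3 replicate C. Over all tested genes, 2.85% and 3.5% were lower in those fits. In replicates B and C alone the count was 10, against 7.69% of all tested genes.

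Of the 4 members higher with hairpin #3, DDX60, HERC5 and HERC6 lie on chromosome 4. The 50 expressed genes nearest to each of them, 25 on either side where present, had a median difference between the hairpins in the same direction, of 0.43 around DDX60, 0.39 around HERC5 and 0.38 around HERC6. Against control, those medians were -0.46, -0.33 and -0.31 with hairpin #1 and -0.04, 0.03 and 0.04 with hairpin #3. Over all expressed genes of chromosome 4 the median was -0.41 with hairpin #1 and 0.02 with hairpin #3. The members exceeded their neighbours in the difference between hairpins by 0.21 (DDX60), 0.59 (HERC5) and 0.21 (HERC6) on the log2 scale. Against control, the member minus its neighbours was 0.05, -0.24 and -0.47 with hairpin #1, in the same order, and 0.27, 0.37 and -0.23 with hairpin #3. DDX60 thus fell no further than its neighbours with hairpin #1. The part of the region in these calls was not tested. For the other 7 members that differed, the neighbours' median difference lay between -0.15 (IRF1) and 0.07 (IFITM2). Around IFI27 it was -0.10, against 2.56 for the gene. With hairpin #3, the genes around OAS1, OAS2 and OAS3 on chromosome 12 had a median of 0.21 against control, compared with 1.62 for OAS2.

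**Figure D4:**
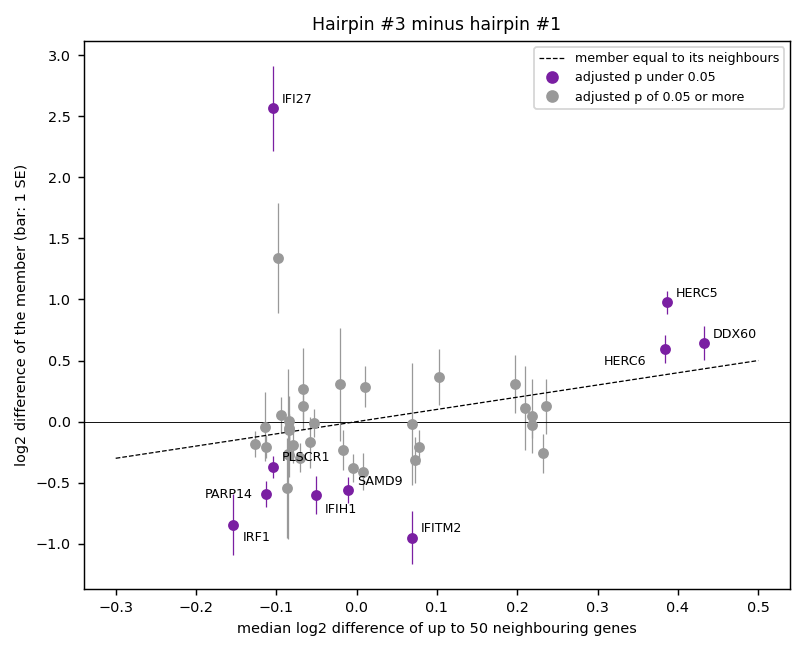
Log2 difference between hairpin #3 and hairpin #1 for each of the 42 tested members (y axis, bars of 1 SE) against the median difference of up to 50 neighbouring expressed genes (x axis). Purple points passed an adjusted p of 0.05 and the dashed line marks equality. DDX60, HERC5 and HERC6 are the points farthest to the right, at neighbour medians of 0.38 to 0.43, and IFI27 lies highest, at 2.56.

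With both hairpins pooled as 1 knockdown group of 6 libraries, 9 members rose (21.4%, background 15.9%) and 8 fell (19.0%, background 17%), with a median of -0.05. IFI27 (1.98 ± 0.77, adjusted p = 0.0693) and HERC5 (0.00 ± 0.26, adjusted p = 0.994), in which the hairpins differed, did not pass in this comparison. IFI27 passed in 4 alternatives, namely without hairpin #1 replicate A (2.21, adjusted p = 0.018), with no filter on low counts (1.99, adjusted p = 0.0168), with the DESeq2 Wald test (1.99, adjusted p = 0.0488) and where both hairpin coefficients of the 3-group model were averaged (1.48, adjusted p = 0.00265).

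Replicate A was the lowest library of all 3 groups for 13 of the 42 tested members (31%), against 15.4% of all tested genes. They were BST2, DDX58, IFI35, IFI6, IFIT2, IFITM1, IFITM2, IFITM3, ISG15, OAS1, SP100, STAT2 and UBE2L6. Without the 3 replicate A libraries, 14 members rose and 9 fell with hairpin #1, against 19.8% and 21% of all tested genes in the same fit, and 13 rose and 10 fell with hairpin #3, against 18.2% and 19.1%. IFI27 then passed with hairpin #1 as well (0.64, adjusted p = 0.0134). The cause of the lower values in replicate A was not tested.

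Upstream of the members, 16 of 20 type I and type III interferon genes had no count in any library, and IFNG had none either. IFNA1, IFNB1 and IFNW1 had at most 3 counts in a library. IFNE, an interferon of reproductive tract epithelium, was the only tested ligand, at 0.967, 1.34 and 1.77 CPM in control, 0.514, 0.305 and 0.643 CPM with hairpin #1 and 0.999, 1.10 and 2.12 CPM with hairpin #3. It fell by 1.45 ± 0.42 with hairpin #1 (adjusted p = 0.0154), had a value of 0.07 ± 0.38 with hairpin #3 (adjusted p = 0.917) and differed between the hairpins by 1.52 ± 0.42 (adjusted p = 0.0339). Hairpin #1 libraries lay below all others, and hairpin #3 overlapped control.

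Of the 6 receptor genes, IFNGR2, a chain of the interferon gamma receptor, rose with both hairpins, by 0.58 ± 0.10 (adjusted p = 0.000394) and 0.51 ± 0.10 (adjusted p = 0.0011). IFNGR1, the other chain, rose with hairpin #1 by 0.86 ± 0.17 (adjusted p = 0.00132) and had a value of 0.18 ± 0.17 with hairpin #3 (adjusted p = 0.469), and the hairpins differed by -0.68 ± 0.17 (adjusted p = 0.0192). IFNLR1, the specific chain of the type III receptor, fell with both, with values of -0.98 ± 0.20 (adjusted p = 0.0018) and -1.64 ± 0.21 (adjusted p = 4.8e-05). IFNAR1, IFNAR2 and IL10RB passed with neither hairpin, with values between -0.16 and 0.60.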

How the data were processed

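RNA of OVCA433 cells was sequenced from 9 poly(A), non-directional libraries in 3 groups of 3, described in the methods as biological replicates. The authors aligned the reads with HISAT2 2.0.5 and counted them per gene with featureCounts 1.5.0-p3 on hg38, per the submitters' processing notes; the annotation release is not given in the sources used here. The deposited values are raw counts, which were used as they stand. Genes on the opposite strand also overlap IFITM2, IFITM3, IFI6, MX1, ISG15, EIF2AK2, XAF1, RSAD2, TRIM22, SP100 and CMPK2. Reads of such overlaps cannot be assigned by direction. Genes passing edgeR's filterByExpr defaults (minimum count 10, minimum total count 15; 15975 of 58676 genes, with 99.889% of the counts) were fitted with edgeR 4.0.16 in R 4.3.3 (glmQLFit, glmQLFTest, TMM factors, 3 groups on all 9 libraries). The pooled comparison used a model with 2 groups. SE is the log2 fold change divided by the square root of its F statistic. CPM were scaled by the TMM factors. The step was tested on simulated data.

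Members and lists were chosen with earlier results of these data known. Members past adjusted p 0.05 with a 2-fold change against control, or different between hairpins, are given in every library. Those named beyond this rule (BST2, IFIT5, IFITM3, PARP9, IFI6 and others) were chosen after their values were seen. Neighbours had a mean of at least 10 CPM. DESeq2 1.42.0, other filters, other scalings, a replicate block and left-out libraries were tried as alternatives. Shared sequence was sought in 100-base windows of GENCODE 29 transcripts. Promoters are from RefSeq.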

Additional observations from a re-analysis of the deposited data

Results flagged for a closer look

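In all, 10 members differed between the hairpins, by edgeR's quasi-likelihood test of hairpin #3 against hairpin #1 with Benjamini-Hochberg adjustment. Of the tested members, 9.52% were higher and 14.3% lower with hairpin #3, against 6.33% and 5.3% of all tested genes. Those higher with hairpin #3 were IFI27 (log2 difference 2.56), HERC5 (0.98), DDX60 (0.64) and HERC6 (0.60). Those lower with hairpin #3 were IFITM2 (-0.95), IRF1 (-0.84), IFIH1 (-0.60), PARP14 (-0.59), SAMD9 (-0.56) and PLSCR1 (-0.37). HERC5 is the member that passed in opposite directions against control. SAMD9, IRF1 and IFITM2 moved the same way with both hairpins, and their amounts differed past the threshold in the main fit. Of 17 alternatives, the difference lost its call in 6 for IRF1, 3 for IFIH1, 2 for IFITM2, 2 for PLSCR1 and 1 for DDX60. The differences of IFI27, HERC5, HERC6, SAMD9 and PARP14 kept theirs in all of them.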

How the results depend on the processing

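Alternatives were no filter on low counts, a minimum mean of 1 CPM, DESeq2 size factors, library totals, DESeq2's Wald test, the groups compared alone, a replicate block, each library left out, and replicates B and C alone, the last chosen after seeing the data. Counts of members that rose or fell with either hairpin against control stayed within 1.5 times the reported ones under each of them. Leaving out 1 library gave 7 to 12 members that rose and 8 to 10 that fell with hairpin #1. It gave 8 to 12 and 10 to 11 with hairpin #3, and 7 to 11 and 6 to 9 with both pooled. In the same fits, 13.7% to 18% of all tested genes rose and 16.1% to 20.4% fell with hairpin #1. With hairpin #3 these shares were 12.6% to 16.7% and 14.6% to 19.3%. With both pooled they were 10.5% to 15.4% and 12.3% to 16.9%. Medians over the members ranged from -0.16 (without replicate C of hairpin #1) to 0.0164 with hairpin #1. For hairpin #3 against hairpin #1, 3 to 5 members were higher and 3 to 7 lower (3 without replicate B or C of hairpin #3). Of all tested genes, 3.54% to 6.51% were higher and 2.85% to 5.73% lower in these fits. The members' medians ranged from -0.195 (without replicate A of hairpin #1) to -0.0304. Replicates B and C alone gave 10 members lower with hairpin #3 than with hairpin #1, against 7.69% of all tested genes. The cause of these shifts was not tested.

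Over 79 values of 25 members, 1274 of 1343 alternative fits kept direction and side of the threshold, 38 lost a call, 12 gained one and 19 changed sign. The sign changes were in values that had not passed. When 1 library was left out, the difference between hairpins ranged from -0.14 to 0.0854 for IFIT2, -0.63 to 0.35 for IFITM1 and -0.14 to 0.48 for OAS2. Against control, IFI27 with hairpin #1 ranged from -0.13 to 0.54. With both hairpins pooled, DDX60 ranged from -0.16 to 0.0355, HERC5 from -0.107 to 0.0969 and PARP14 from -0.0339 to 0.139. In replicates B and C alone, the difference between hairpins was -0.0663 for IFIT2, and the pooled value of DDX60 was 0.0550. The IFITM1 difference was 0.00759 with library totals, and the pooled HERC5 value was 0.000941 with no filter.

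The letters A, B and C share only a name in the labels. Deviations from group means of same-letter libraries correlated at 0.05 to 0.47 over 9 pairs, those of other pairs at -0.44 to 0.18, and 7 of 9 libraries were closest to their own letter in both other groups. With a replicate block, 13 members rose and 12 fell with hairpin #1, against 23.7% and 25.1% of all tested genes, 13 and 15 with hairpin #3, against 21.9% and 23.6%, and 7 were higher and 10 lower with hairpin #3 than with hairpin #1, against 12.2% and 10.9%. Under the block, PARP14 with hairpin #3 (-0.26, adjusted p = 0.031) and IFIH1 with hairpin #1 (-0.33, adjusted p = 0.04998) passed, and the pooled fall of IFIH1 (-0.59, adjusted p = 0.0526) did not. Depth limits members with few counts in control, such as IFITM1, OAS2, OASL, MX2, IRF9, RSAD2 and XAF1.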

Other observations

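Wider lists of the pathway, chosen with earlier results known, held 102 genes, of which 74 were tested. With hairpin #1, 12 rose and 24 fell (16.2% and 32.4%), and with hairpin #3, 10 rose and 20 fell (13.5% and 27.0%), against 18% and 19.7% and against 16.6% and 18.1% of all tested genes. The 31 tested genes of a list of further interferon-induced genes gave 4 that rose and 11 that fell with hairpin #1 (median log2 fold change -0.20), and 3 that rose and 12 that fell with hairpin #3 (median -0.30). In that list CCL5, a chemokine for T cells, was the gene that rose past 2-fold with both hairpins, at 0.0484 to 0.143 CPM in control, 0.607 to 2.01 CPM with hairpin #1 and 0.23 to 0.658 CPM with hairpin #3, which is a few counts per control library.

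Of 11 tested interferon gamma targets, 2 rose and 4 fell with hairpin #1 (18.2% and 36.4%), and 2 rose and 3 fell with hairpin #3 (18.2% and 27.3%). Over all tested genes the shares were 18% and 19.7% with hairpin #1 and 16.6% and 18.1% with hairpin #3. GBP5, a guanylate-binding protein, rose by 2.02 ± 0.53 (edgeR adjusted p = 0.00845) and 2.56 ± 0.52 (adjusted p = 0.00164) on the log2 scale, while APOL6, an apolipoprotein L, fell, with values of -1.05 ± 0.15 (adjusted p = 0.000111) and -1.12 ± 0.15 (adjusted p = 7.66e-05). IFI16, a DNA sensor, lay at 22.4 to 29.7 CPM in control, 77.6 to 84.1 CPM with hairpin #1 and 61.3 to 69.3 CPM with hairpin #3, and rose by 1.64 ± 0.11 (adjusted p = 1.09e-07) and 1.36 ± 0.11 (adjusted p = 6.81e-07). Of 12 tested sensing adaptors and kinases, among them IFI16, 2 rose and 4 fell with hairpin #1 (16.7% and 33.3%). With hairpin #3, 2 rose and 2 fell (16.7% each). Of 8 negative regulators of the pathway, 1 rose and 3 fell with hairpin #1, and 1 rose and 2 fell with hairpin #3. CISH, which restrains STAT5 signals, fell, with values of -2.42 ± 0.39 (adjusted p = 0.000292) and -2.98 ± 0.43 (adjusted p = 0.000118), and the phosphatase PTPN6 fell, with values of -1.01 ± 0.17 (adjusted p = 0.000457) and -1.09 ± 0.18 (adjusted p = 0.000278). Of 5 genes for kinases and STAT factors, JAK2 rose with hairpin #3 by 0.49 ± 0.12 (adjusted p = 0.00668) and JAK1 with hairpin #1 by 0.31 ± 0.09 (adjusted p = 0.0137), and none fell.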
